A study of Mus musculus with 20 samples.

Results

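Pachytene spermatocytes were compared with leptotene/zygotene spermatocytes by small RNA sequencing. All 4 libraries came from wild-type C57BL/6J mice aged about 70 to 80 days, with 2 biological replicates of each stage. Both cell populations were obtained from adult testis by STA-PUT, a sedimentation at unit gravity that separates cells by size and density. By microscopy the submitters put purity at about 90% for pachytene cells and above 90% for leptotene and zygotene cells, which were collected together. The same series holds 6 small RNA libraries of whole testis from days 1, 3 and 7 after birth, and an RNA library set of the same 5 stages. Each row of the small RNA table is a seed of 7 bases with its read count per library. The 356 seeds with at least 20 counts summed over the 4 spermatocyte libraries were kept, of 4940 in all and of 1472 with any count in these libraries. Just at the minimum lay 6 seeds with 20 counts, and just below it 6 seeds with 19.

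MicroRNAs are short RNAs that guide Argonaute proteins to messenger RNAs, mainly by pairing of the seed, bases 2 to 8 of the mature strand. Mature miRNAs that share a seed form a family and share a row here. In meiotic prophase, homologous chromosomes begin to pair in leptotene and zygotene and are fully synapsed in pachytene, when the X and Y chromosomes are transcriptionally silenced in the sex body. The testis is known for miRNAs of the miR-34 and miR-449 family and for X-linked miRNA clusters that are largely restricted to male germ cells.

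RefSeq mature sequences (table of build GRCm38.p6) matched 205 of the 356 seeds, through 334 miRNAs. The other 151 seeds are given by their letters or, where the miRNA is well known, by its name alone. The sequences on which the results turn are printed 5′ to 3′ with the seed in capitals. The most abundant seed is that of the miR-34 and miR-449 family. Its members miR-34c-5p and miR-449b had no RefSeq sequence here, so they are not printed but may add to the row. The seed is shared by these miRNAs of chromosomes 4, 9 and 13, which differ after the seed.
miR-34a-5p: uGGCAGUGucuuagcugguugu
miR-34b-5p: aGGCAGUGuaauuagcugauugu
miR-449a-5p: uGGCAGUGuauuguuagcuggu
miR-449c-5p: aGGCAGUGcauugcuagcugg
Another pair shares the next seed; their precursors are on chromosomes 11 and 2, within Hox gene clusters.
miR-10a-5p: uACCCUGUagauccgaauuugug
miR-10b-5p: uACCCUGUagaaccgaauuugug
Next are blood cell miRNAs of the sequence table whose libraries did not overlap between stages; they come from chromosome 11, where the miR-144 and miR-451a precursors are neighbours.
miR-451a: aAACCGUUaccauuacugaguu
miR-144-3p: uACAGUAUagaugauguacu
miR-144-5p: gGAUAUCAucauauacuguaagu
miR-142a-5p: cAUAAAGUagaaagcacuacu
The most abundant seeds of the X-linked spermatogenic clusters are each shown by 1 miRNA; near-identical copies share the last of them.
miR-871-3p: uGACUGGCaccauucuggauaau
miR-470-5p: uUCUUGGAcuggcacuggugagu
miR-881-3p: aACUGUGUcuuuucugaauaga
miR-741-3p: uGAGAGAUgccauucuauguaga
miR-465a-5p: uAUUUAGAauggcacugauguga
Last, 2 autosomal miRNAs were at higher values in both pachytene libraries, from chromosomes 9 and 2.
miR-191-5p: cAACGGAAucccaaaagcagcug
miR-298-5p: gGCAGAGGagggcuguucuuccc

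The libraries were shallow and unequal. Leptotene/zygotene replicates 1 and 2 held 820461 and 119746 counts, and pachytene replicates 1 and 2 held 338443 and 112967. A row with no count could therefore lie at up to 4.10, 27.1, 8.66 and 22.7 CPM, that is counts scaled to a fixed library total, in the same order, the value of 3 counts and a limit of counting error only. The kept seeds held 99.58% to 99.73% of each library. The seed with the highest mean level alone took 11.01% to 25.1%, and the 12 most abundant took 72.71% to 79.09%.

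The labelled stages were checked in the separate RNA libraries of the same labels, where marker genes are given as CPM of gene counts. Piwil1, a piRNA-pathway protein that appears in pachytene, was at 78.4 and 58.5 in the leptotene/zygotene libraries and 685 and 1148 in the pachytene libraries. Of 10 pachytene markers, 7 were higher in both pachytene libraries and 1 was lower. The share of all genes that lie without overlap in these RNA libraries was not counted, so such marker counts have no background beside them. Of 10 leptotene/zygotene markers, only Smc1b was lower in both pachytene libraries, while 4 were higher. One of these was Sycp3, a component of the synaptonemal complex, at 22.8 and 29.3 against 96.4 and 165. All 10 spermatid markers were higher in both leptotene/zygotene libraries, with a summed level of 39372 and 35728 against 7039 and 4519. Prm2, a protamine of condensing spermatids, was at 12424 and 10578 against 1960 and 1089. In these RNA libraries the leptotene/zygotene label is thus not borne out by its own markers, and the group is called here by its label only. Whether the RNA and small RNA libraries came from the same cell preparations is not given in the sources used here, and the part of spermatid RNA in the small RNA differences was not tested.

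**Figure D1:**
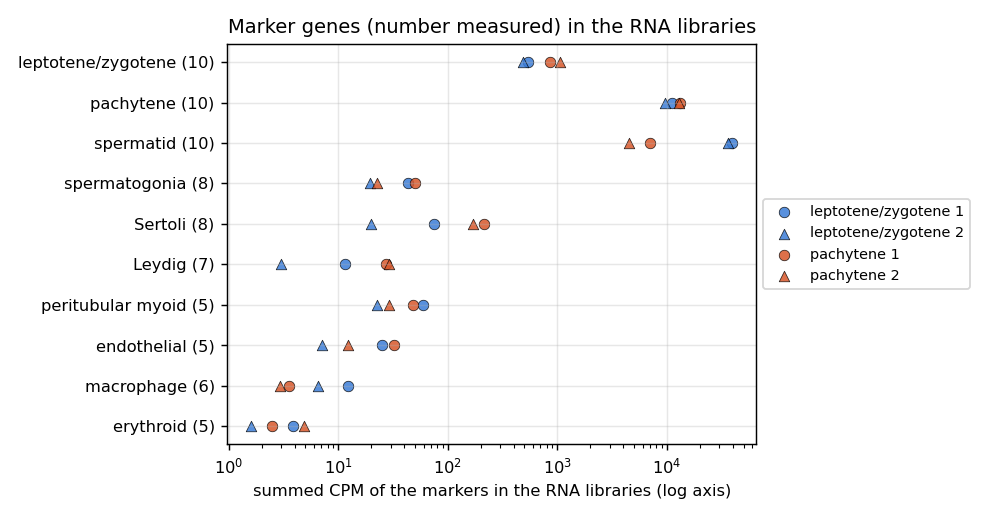
Summed CPM of marker genes in the RNA libraries (log axis), by cell type with the number of genes measured; blue is leptotene/zygotene, red is pachytene, circles are replicate 1 and triangles replicate 2. Spermatid markers sum to 39372 and 35728 in leptotene/zygotene against 7039 and 4519 in pachytene, while leptotene/zygotene markers sum to less in the group of that name.

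Somatic markers were low in the same RNA libraries. The 8 Sertoli cell markers measured summed to 73.9 and 19.9 CPM in leptotene/zygotene and to 216 and 169 in pachytene, and 7 of the 8 were higher in both pachytene libraries. The 7 Leydig cell markers summed to 11.4 and 2.97 against 27.4 and 28.9. The 6 macrophage markers summed to 12.2 and 6.57 against 3.58 and 2.91, and 5 of them were lower in both pachytene libraries. Of 5 erythroid markers, the 4 globin genes, which are near-identical copies and uncertain, were at 0 in all 4 libraries. Here too the counts of markers have no share of all genes beside them, and they are given as values only. The somatic marker values touch the blood cell and somatic miRNAs below.

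No seed passed the test between the stages. With edgeR's quasi-likelihood test at a Benjamini-Hochberg adjusted p of 0.05, 0 of 356 seeds (0%) were called, and 3 were called by DESeq2. When all 10 small RNA libraries shared 1 estimate of the spread, 7 of 356 (1.97%) were called, 5 higher and 2 lower in pachytene. Unadjusted p-values were below 0.05 for 32 seeds (8.99%), of which 21 (5.90%) were higher in pachytene and 11 (3.09%) lower. Both pachytene libraries lay above both leptotene/zygotene libraries for 76 seeds (21.3%) and below them for 63 (17.7%). The median log2 fold change of pachytene over leptotene/zygotene was -0.03. Precision set what could be seen: the 95% interval of the fold change reached a median of 1.79 to either side on the log2 scale. For 94 seeds this interval lay within 4-fold in either direction, and for 0 seeds within 2-fold. The values below are therefore given as differences between 2 and 2 libraries that did not pass the test. In such bulk samples, fewer cells of a type and less RNA per cell cannot be told apart.

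**Figure D2:**
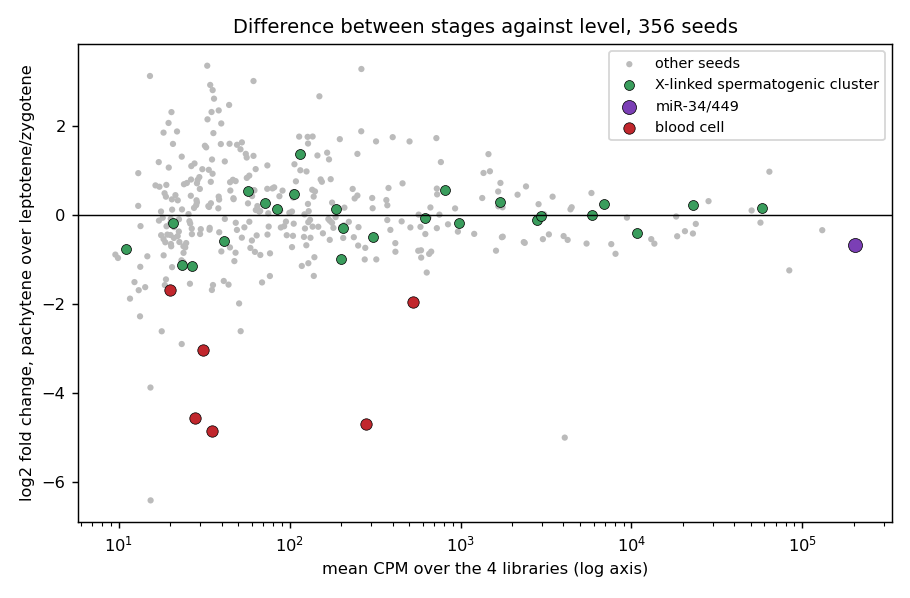
Log2 fold change of pachytene over leptotene/zygotene (vertical) against mean CPM over the 4 libraries (horizontal, log axis) for the 356 seeds, with miR-34 and miR-449, the X-linked spermatogenic clusters and the blood cell miRNAs coloured. No seed passed the test. The 6 tested blood cell seeds all lie below 0, from -4.84 to -1.69, while the X-linked seeds lie from -1.14 to 1.38. Several of the blood cell seeds were kept through leptotene/zygotene counts alone, which partly sets their low values.

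The miR-34 and miR-449 seed, of a family known to be needed for male germ cell and motile cilia development, had the highest mean level in both stages. It stood at 231595 and 271411 CPM in leptotene/zygotene and at 107595 and 208196 in pachytene. Both pachytene values were below both leptotene/zygotene values, and pachytene replicate 1 was the low library, in which miR-10 and miR-191-5p were above it. The log2 fold change was -0.67 (95% interval -2.13 to 0.79, adjusted p = 0.923, edgeR). As a share of all counts the seed took 20.63% and 25.1%, then 11.01% and 24.37%, against 0.0226% to 0.0583% in the 6 whole testis libraries. The seed of the opposite strands miR-34b-3p and miR-34c-3p was far lower, at 3984 and 4416 against 5418 and 3766 CPM, and these values overlapped.

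The seed of miR-10a-5p and miR-10b-5p, miRNAs of the Hox clusters, differed more between replicates than between stages. It was at 199142 and 93077 CPM in leptotene/zygotene and at 184625 and 46541 in pachytene. In each stage replicate 1 was the high library. A further seed among the 12 most abundant, CCCUGUA, is the miR-10 seed shifted by 1 base.

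The seed known from miR-143-3p, a miRNA of smooth muscle and other mesenchymal cells, was at 149505 and 86340 CPM against 54480 and 45308. The groups did not overlap, with a log2 fold change of -1.24 ± 0.62 (SE, adjusted p = 0.606, edgeR). Summed peritubular myoid markers in the RNA libraries were 59.5 and 22.5 CPM against 48.4 and 29.2, and the part of such cells in this difference was not tested. The seed of miR-191-5p, a broadly expressed miRNA, lay the other way, at 45656 and 40890 against 122506 and 47637. Its log2 fold change was 0.98 ± 0.67 (SE, adjusted p = 0.778), and the size rested on pachytene replicate 1, since replicate 2 was close to the leptotene/zygotene values.

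The remaining abundant seeds stayed close to each other or varied with the library. The miR-30 seed, a broadly expressed family, was at 64146 and 56287 against 49374 and 57777 CPM. The seed of miR-25-3p and miR-92a-3p, from the clusters related to miR-17 to miR-92, was at 24652 and 72713 against 34798 and 69868, so that both replicate 2 libraries were high. The seed of miR-7210-5p ranged most widely, at 7815 and 42588 against 22752 and 39871. For miR-22-3p the values were 27444 and 23407 against 26123 and 18223. The seed of miR-15 and miR-16, known as brakes on the cell cycle, was at 23072 and 29232 against 19055 and 20227, without overlap (log2 fold change -0.41, adjusted p = 0.923). The let-7 seed, of a family that rises with differentiation in many tissues, was at 20349 and 22730 against 13713 and 17293, also without overlap and also with an adjusted p of 0.923.

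**Figure D3:**
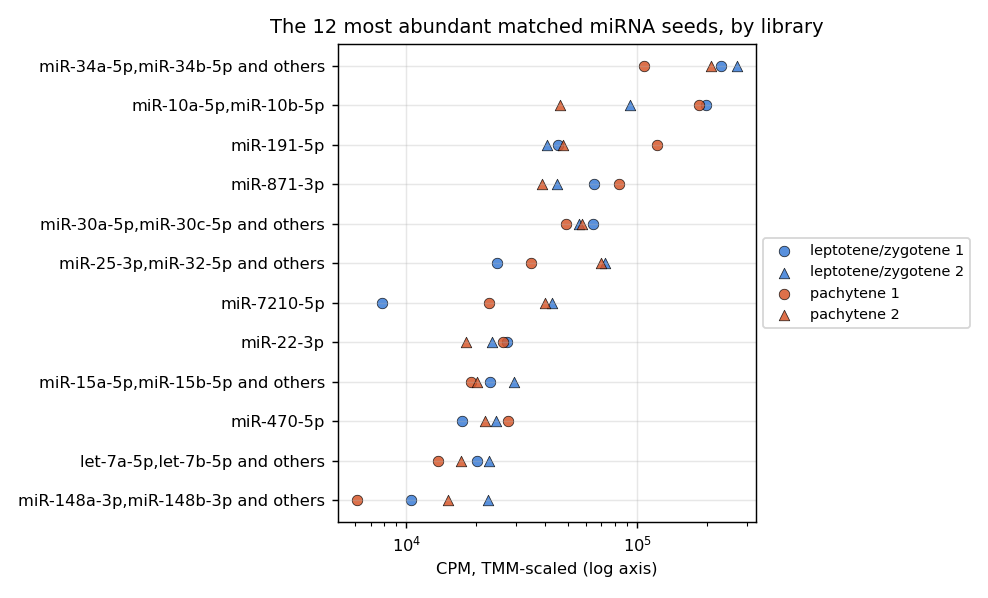
TMM-scaled CPM (log axis) of the 12 most abundant seeds with a RefSeq match in each of the 4 libraries; blue is leptotene/zygotene, red is pachytene, circles are replicate 1 and triangles replicate 2. The miR-34 and miR-449 seed lies at 107595 to 271411 CPM, and for several seeds, such as miR-25-3p with miR-92a-3p, the libraries fall together by replicate number rather than by stage.

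MicroRNAs known from blood cells had the lowest median log2 fold change of the 14 lists described. Of 9 members, 7 matched a RefSeq sequence and 6 seeds were tested; 0 passed, and all 6 had a negative log2 fold change, with a median of -3.79 against -0.03 over all seeds. For 4 of the 6 (66.7%) the unadjusted p was below 0.05 with the lower value in pachytene, against 3.09% of all seeds. For 4 of the 6 both pachytene libraries were below both leptotene/zygotene libraries, against 17.7%. The seeds are not the same throughout: miR-223-3p is only in the first of these counts and miR-142a-5p only in the second. Both miR-144 seeds, miR-223-3p and miR-142a-3p reached the minimum of 20 counts through leptotene/zygotene alone. Their low pachytene values, and with them the list median and both shares above, are thus partly set by that filter. The median and the shares are therefore given as values only, and no fall of the list is drawn from them. The miR-451a and miR-144 precursors are neighbours, so their seeds are not independent of each other.

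The seed of miR-451a, an erythroid miRNA processed by Argonaute 2 in place of Dicer, was at 577 and 497 CPM in leptotene/zygotene and at 28.9 and 7.56 in pachytene. All pachytene values were far below the leptotene/zygotene values. The log2 fold change was -4.68 ± 0.78 (SE, adjusted p = 0.0585, edgeR), with a 95% interval of -6.45 to -2.91. It was past the threshold under 11 of 15 alternative settings, with adjusted p-values from 2.96e-09 to 0.815 over the alternatives. As plain CPM without scaling, the seed stood at 70.6 to 273.8 in the 6 whole testis libraries, between the 2 spermatocyte stages, which on that scale were at 514 and 459 against 29.5 and 8.85.

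The same held for the seed known from miR-486a-5p, another erythroid miRNA, which is not in the sequence table. It was at 3040 and 12751 CPM against 315 and 174, so that the leptotene/zygotene libraries differed from each other but not in direction. The log2 fold change was -5.00 ± 0.89 (SE, adjusted p = 0.0585), and it passed under 10 of the alternative settings (adjusted p-values from 3.45e-10 to 0.621).

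Both strands of miR-144, which is transcribed with miR-451a in red cell precursors, were nearly without counts in pachytene. The miR-144-3p seed had 56 counts in leptotene/zygotene and 1 in pachytene, at 65.7 and 72.2 CPM against 2.89 and 0. The ratio of counts pooled over each stage to the pooled scaled library sizes, pachytene over leptotene/zygotene, was 0.0314, with a counting interval of 0.000781 to 0.182; the deepest library weighs most in it. The miR-144-5p seed had 51 counts against 1, a pooled ratio of 0.0345 with a counting interval of 0.000857 to 0.201. Their adjusted p-values were 0.177 and 0.225 (edgeR). With replicate number as a block in the fit, the adjusted p of miR-144-3p was 0.0204 (edgeR), the only setting that called it.

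MicroRNAs of white blood cells were less uniform. The seed of miR-142a-5p, a miRNA of all blood lineages, was at 978 and 686 CPM against 54.9 and 393, without overlap but with pachytene libraries that differed widely (log2 fold change -1.94 ± 0.87, SE, adjusted p = 0.526). Without pachytene replicate 2, which leaves a single pachytene library, the log2 fold change was -3.92. Over all alternatives it ran from -3.92 to -1.09. Of the settings that keep all libraries, only the fit with replicate number as a block called this seed (adjusted p = 0.00951, edgeR). The labels do not say that a replicate number marks a shared preparation. The seed listed for miR-142b, which starts 2 bases before that seed in the same hairpin, was at 896 and 903 against 401 and 333. The other strand, miR-142a-3p, was at 45.1 and 9.03 against 2.89 and 22.7, which overlapped. The miR-223-3p seed, of a myeloid miRNA from the X chromosome, was at 104 and 9.03 against 11.6 and 0, which also overlapped, and its leptotene/zygotene level came from replicate 1. Without leptotene/zygotene replicate 1 the log2 fold change was -0.19 for miR-223-3p, where it was -3.02 with all libraries, and 0.08 for miR-142a-3p, where it was -1.69. Beside these values, summed macrophage markers in the RNA libraries were 12.2 and 6.57 CPM against 3.58 and 2.91, summed erythroid markers were 3.89 and 1.61 against 2.49 and 4.85, and globin genes were at 0. The part of blood cells in the small RNA difference was not tested.

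**Figure D4:**
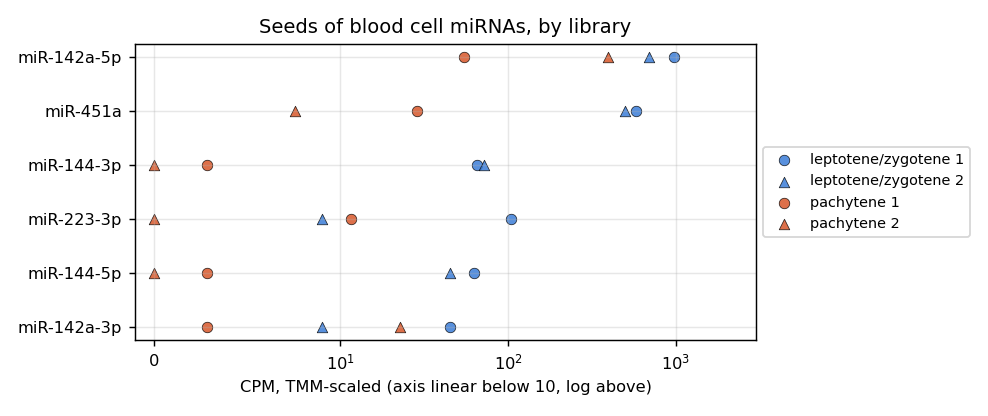
TMM-scaled CPM of the 6 tested seeds of blood cell miRNAs in each library (axis linear below 10 CPM and logarithmic above); blue is leptotene/zygotene, red is pachytene, circles are replicate 1 and triangles replicate 2. For miR-451a, both miR-144 strands and miR-142a-5p the red symbols lie to the left of the blue ones, while miR-223-3p and miR-142a-3p overlap.

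The seed of miR-298-5p lay at the higher pachytene end. It was at 283 and 388 CPM in leptotene/zygotene and at 1109 and 1104 in pachytene, without overlap. The log2 fold change was 1.73 ± 0.58 (SE, 95% interval 0.42 to 3.04, adjusted p = 0.45, edgeR). It passed under 1 alternative setting, the fit with all 10 libraries, with an adjusted p of 0.0169 in a range of 0.0169 to 0.841. The precursor of miR-298 lies in an imprinted region of chromosome 2.

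The smallest adjusted p among seeds with higher pachytene values belonged to GAAGGGG, which matched no RefSeq miRNA at bases 2 to 8; it was singled out after its values were seen. It was at 45.1 and 54.2 CPM against 520 and 431, a log2 fold change of 3.28 ± 0.65 (SE, adjusted p = 0.0849, edgeR). It passed under 6 of the alternative settings (adjusted p-values from 9.29e-06 to 0.815). In 5 of the 6 whole testis libraries this seed had no count. Also chosen after its values were seen, miR-3062-5p was at 43.8 and 36.1 against 373 and 144 (log2 fold change 2.67 ± 0.74, SE, adjusted p = 0.256), and it passed under 4 settings (adjusted p-values from 0.00102 to 0.841).

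Among the 6 largest rises without overlap and with a mean above 500 CPM in pachytene, the higher group, 3 seeds were without a RefSeq match. The seed AUCUUGU had a log2 fold change of 1.65. For GUUUUCU it was 1.75, and for GAGACAG it was 1.37. The seed of miR-411-5p, a miRNA of the imprinted Dlk1-Dio3 region, was at 707 and 1291 against 1912 and 2026 CPM (log2 fold change 0.98, adjusted p = 0.728). Of the 21 seeds with an unadjusted p below 0.05 and a higher pachytene value, 15 had no RefSeq match, which is 9.93% of the 151 unmatched seeds. The share was 5.90% of all 356 seeds and 3.85% of the 156 seeds of autosomal miRNAs only. A seed without a match can be the seed of a RefSeq miRNA shifted by 1 base, and 74 of the 151 had the letters of such a shifted seed. All RefSeq miRNAs were compared, whether or not they had counts here, and how many would match by chance was not tested. Rows may therefore not all be separate families.

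The lowest log2 fold change of all seeds, -6.40, belonged to a seed of low level without a RefSeq match. It had no count in pachytene, so that it was kept through leptotene/zygotene alone. Among the largest falls without overlap above 500 CPM, outside the blood cell list, was the seed of miR-199a-3p and miR-199b-3p, miRNAs of mesenchymal cells. This seed was at 1084 and 605 CPM against 445 and 484. The log2 fold change was -0.87 (adjusted p = 0.778). The groups did not overlap, but leptotene/zygotene replicate 2 lay close to the pachytene libraries.

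The X-linked spermatogenic clusters, which lie on the chromosome that is silenced in pachytene, held no seed that passed the test between the stages. Of 33 members all matched, with 28 distinct seeds, and 25 were tested; 0 passed, and for none was the unadjusted p below 0.05, against 8.99% of all seeds. The median log2 fold change was -0.02, with a range of -1.14 to 1.38. Both pachytene libraries lay above both leptotene/zygotene libraries for 2 seeds and below them for 5, of 25, where all 356 seeds gave 76 above (21.3%) and 63 below (17.7%); 18 overlapped. Together the seeds held 10.19% and 10.11% of counts in leptotene/zygotene and 14.4% and 11.59% in pachytene, with pachytene replicate 1 the highest. Over the whole testis libraries their share was 0.337% and 0.458% on day 1, 0.346% and 0.555% on day 3, and 2.46% and 2.39% on day 7.

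Single members followed the same lines. The miR-871-3p seed, the most abundant of the clusters, was at 65102 and 45080 CPM against 83477 and 38843, so that replicate 1 was higher in each stage. The miR-470-5p seed was at 17456 and 24491 against 27526 and 21830. The miR-881-3p seed was at 9610 and 15108 against 5178 and 13437, and here replicate 2 was higher in each stage. The miR-741-3p seed was at 4827 and 7757 against 5586 and 9301. The seed shared by miR-465a-5p and its copies was at 6124 and 5689 against 6403 and 5399, with a log2 fold change of 0.00 and a 95% interval of -1.25 to 1.25. The miR-743a-3p seed was at 3821 and 2140 against 3864 and 2011. All 6 overlapped between stages, and none of their intervals lay within 2-fold.

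Seeds were also split by the chromosome of their RefSeq precursors. The 35 seeds from the X chromosome alone had a median log2 fold change of 0.00, and the 156 from autosomes alone had a median of -0.13. Of the X-linked seeds 1 (2.86%) had an unadjusted p below 0.05, with the lower value in pachytene. It was miR-223-3p, which was kept through leptotene/zygotene alone. Of the autosomal seeds 12 did, 6 (3.85%) in each direction, where all seeds gave 5.90% higher and 3.09% lower. The difference between these medians was not tested.

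**Figure D5:**
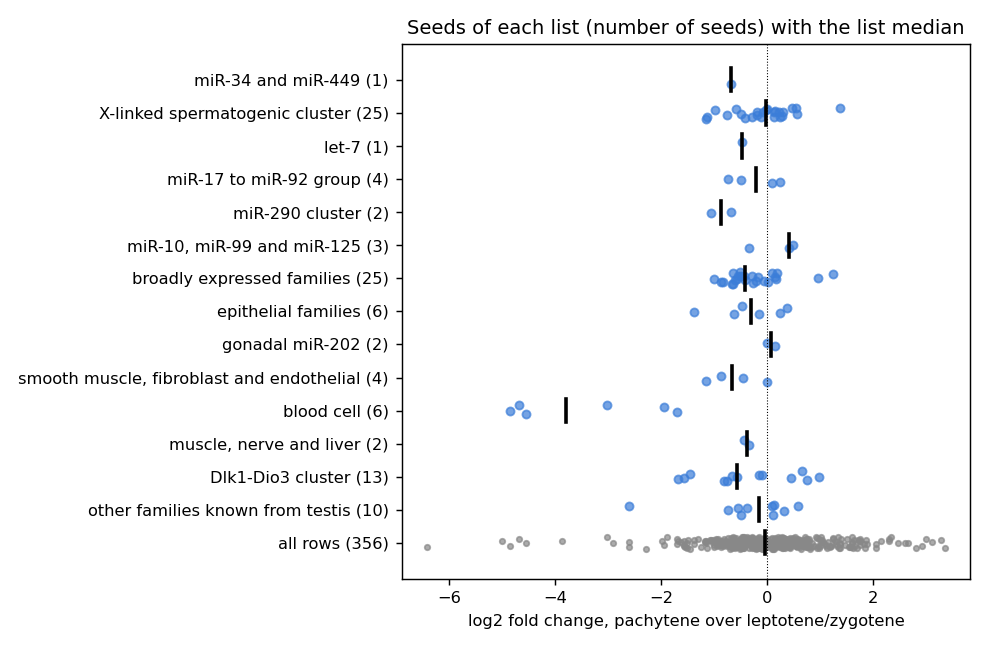
Log2 fold change of pachytene over leptotene/zygotene for the tested seeds of each miRNA list (points, with the number of seeds) and the list median (bar), with all 356 seeds at the bottom. The blood cell list has a median of -3.79 against -0.03 for all seeds, and the X-linked clusters have a median of -0.02.

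The other lists held 0 seeds past the test, and 1 of their seeds had an unadjusted p below 0.05, namely miR-135a-5p among the other testis families (24.6 and 36.1 CPM against 2.89 and 7.56). Both pachytene values lay below the level of 3 counts in their libraries, 8.66 and 22.7 CPM. The miR-135a-5p seed was kept through leptotene/zygotene alone, so its low pachytene level is partly set by the filter. The 25 seeds of broadly expressed families had a median log2 fold change of -0.41, and 19 of them overlapped between stages, where 217 of all 356 seeds did. The 4 seeds of the miR-17 to miR-92 group, miRNAs that promote cell proliferation, had a median of -0.20. The seed of miR-17-5p was at 2560 and 2673 CPM against 3255 and 2949, and that of miR-19a-3p at 2101 and 1978 against 1308 and 1588. The 6 epithelial seeds had a median of -0.31. Among them miR-141-3p with miR-200a-3p was at 208 and 189.6 against 72.2 and 83.2, without overlap (adjusted p = 0.551).

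Seeds of somatic cells outside the blood showed wide replicate spread. The seed of miR-126a-3p, an endothelial miRNA, was at 1000.1 and 126 CPM in leptotene/zygotene and at 965 and 181 in pachytene, so that both replicate 1 libraries were high and the stages overlapped. Endothelial marker genes in the RNA libraries also summed to more in each replicate 1, at 25.3 and 7.16 against 32.2 and 12.2, and their part in the miRNA values was not tested. The 4 seeds of smooth muscle, fibroblast and endothelial miRNAs in the sequence table had a median log2 fold change of -0.66. The 13 seeds of the Dlk1-Dio3 cluster, imprinted miRNAs mainly of chromosome 12 that are abundant in embryonic and somatic tissue, had a median of -0.56. They held 0.372% to 0.532% of counts in the spermatocyte libraries, against 7.57% to 11.25% in whole testis. Its most abundant seed, miR-127-3p, was at 2259 and 1833 CPM against 1256 and 1096, without overlap (adjusted p = 0.788).

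Gonadal miR-202, known from Sertoli cells and germ cells, did not separate the stages. Its 5p seed was at 940 and 551 CPM against 555 and 960. Its 3p seed, which let-7j also carries, was at 45.1 and 0 against 34.7 and 30.2, where the 0 lies in a library in which 3 counts are worth 27.1 CPM. The seed of miR-184-3p was at 3112 and 4073 against 2963 and 1974, without overlap (log2 fold change -0.54, adjusted p = 0.923).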

How the data were processed

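The deposited small RNA table holds raw counts per 7-base seed, and the RNA table raw counts per gene. The tools named are HTSeq 0.6.1, Bowtie 0.12.7, edgeR 3.6.8 and BWA 0.7.8, with build mm9, per the submitters' processing notes; what each one made is not given in the sources used here, and no coordinates are printed. Seeds with at least 20 counts over the 4 spermatocyte libraries were tested with edgeR 4.0.16 (R 4.3.3) after TMM scaling, by the two-sided quasi-likelihood test with Benjamini-Hochberg adjustment at 0.05. These 4 libraries were fitted alone because their replicate spread is larger than that of whole testis. CPM are TMM-scaled unless called plain; an SE is the size of the log2 fold change divided by the root of its F value. P-values set the difference between the stages against the spread between the 2 libraries of each stage. The script was tested on simulated data with large changes and a single spread for all seeds. That test does not show how well smaller differences would be found. In the RNA table HTSeq's 5 summary categories (45.4% to 64.5% of reads in the spermatocyte libraries) were left out, and strand use is not given. Named seeds are the 12 most abundant, the 6 largest non-overlapping differences in each direction above 500 CPM, list members among the 4 most abundant of a list, and fixed well-known families. Members and lists were chosen with earlier results of these data known. Alternatives were other scalings, filters, DESeq2, all 10 small RNA libraries, a replicate block and leaving out each library.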

Additional observations from a re-analysis of the deposited data

How the results depend on the processing

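The count of seeds past the test was 0 and stayed 0 with plain library sizes and with at least 100 counts per seed. It was 2 (0 higher and 2 lower in pachytene) with median-ratio size factors, with scaling without the 3 most abundant seeds and with no filter, 2 (1 higher, 1 lower) with matched seeds only, 3 (1 higher, 2 lower) with upper-quartile factors, filterByExpr or DESeq2, and 7 (5 higher, 2 lower) with all 10 libraries, whose common dispersion was 0.111 against 0.248. Leaving out 1 library gave 0 to 5 calls, 0 to 2 higher and 0 to 3 lower; there were 2 without pachytene replicate 1, 5 without pachytene replicate 2 and 0 without either leptotene/zygotene library. The median log2 fold change of all seeds was -0.03, and -0.17 with upper-quartile factors, 0.23 with plain sizes, 0.42 with all 10 libraries, -0.40 with no filter, -0.11 with filterByExpr and 0.15 without leptotene/zygotene replicate 1. Over these settings the log2 fold change of miR-451a ran from -6.08 to -4.21. The labels give both stages replicate numbers 1 and 2 but do not say that a number marks a shared preparation; deviations of same-numbered libraries correlated across 178 seeds at r = 0.525, which are not independent replicates. With a replicate block 8 seeds passed, 4 higher and 4 lower, among them miR-142a-5p (adjusted p = 0.00951) and miR-144-3p (0.0204). Depth limits seeds near 20 counts, and the cause of these changes was not tested unless stated.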
